A study of Mus musculus with 8 samples.

Results

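Voltage-gated sodium channel subunits were followed through knockdown of the splicing regulators Rbfox1 and Rbfox3 and through rescue with either a cytoplasmic or a nuclear Rbfox1 splice isoform, in cultured mouse hippocampal neurons. The members were 7 genes taken by symbol: the pore-forming alpha subunits Scn1a, Scn2a1, Scn3a and Scn8a, and the auxiliary beta subunits Scn2b, Scn3b and Scn4b. Of these, 6 had an expression level in every group, among 15598 genes in the knockdown table, and 3 (Scn1a, Scn2a1 and Scn8a) had an exon among the cassette exons the authors listed. The expression level of Scn8a was not analysed here.

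The 8 RNA-seq samples fall into 4 groups of 2. All received an adeno-associated virus of serotype 2/9 whose insert is driven by the synapsin promoter SynI, which is active in neurons, at 9 days in vitro (DIV), and Accell siRNA, a chemically modified siRNA that enters cells without a transfection reagent, for 4 days from 10 DIV, with RNA taken at 14 DIV. The cytoplasmic rescue carried Flag-Rbfox1_C_siMt with siRNAs to Rbfox1 and Rbfox3, and the nuclear rescue carried Flag-Rbfox1_N_siMt with the same siRNAs. The knockdown carried EGFP with those siRNAs, and the control carried EGFP with non-targeting siRNA. EGFP is thus in the knockdown and control vectors and is not named for the rescue vectors. The labels do not state separate cultures for the samples within a group, so the spread behind the authors' test may be technical. The design asks what changes when both Rbfox proteins are reduced, and what each isoform brings back.

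A sodium channel is built from 1 alpha subunit, a large membrane protein that forms the ion-conducting pore and senses voltage, together with smaller beta subunits that adjust gating, surface delivery and adhesion. The channels gather at the axon initial segment, where the action potential starts. In hippocampus, Scn2a1 (NaV1.2, now named Scn2a) is the alpha subunit of excitatory axons early in development, Scn8a (NaV1.6) joins it as neurons mature, Scn1a (NaV1.1) is best known from inhibitory interneurons and its loss from Dravet syndrome epilepsy, and Scn3a (NaV1.3) is mainly embryonic. Beta2 (Scn2b) and beta4 (Scn4b) are linked to the alpha subunit by a disulfide bond, whereas beta3 (Scn3b) associates without one. Rbfox proteins bind the word TGCATG, written here in DNA letters, beside exons and, in the cytoplasm, in 3′ untranslated regions (UTRs).

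The 3 alpha genes with a level sit together on mouse chromosome 2 (mm9): Scn3a at 65295175 to 65405549, Scn2a1 at 65508502 to 65605504 and Scn1a at 66108839 to 66278894. The 3 beta genes are on chromosome 9: Scn3b at 40076801 to 40099203, Scn2b at 44887266 to 44943689 and Scn4b at 44947125 to 44962144. Scn2b and Scn4b are neighbours, with 3435 bases between their loci. RefSeq genes overlap the spans, introns included, of Scn1a, Scn3a, Scn8a and Scn2b (Gm13630, Gm34833, Gm52176 and Gm10684, in that order). The libraries kept no strand, so reads from any exon bases shared with those genes cannot be told apart. Whether exons overlap was not analysed here.

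The listed exon of Scn2a1 (92 nt, coding) is the member exon listed in all 3 comparisons, and a similar exon lies beside it. In the GENCODE M21 annotation it was matched by the lengths of 3 exons and the 2 gaps between them in 2 transcripts, and a second exon of 92 nt follows it after 95 bases. This is the known mutually exclusive pair of the gene, the neonatal and adult exons, which code for part of the voltage-sensing region of the first channel domain. The exons of the pair differ at 20 of 92 bases (78.3% identity), 16 of them at the third base of a codon, and the last 7 bases are identical. By the codon at which the pair is known to differ in its amino acid, the listed exon is the neonatal one.

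The words searched, on both strands, were TGCATG and its shorter core (GCATG), which every longer match also holds. The 502 annotated bases searched hold both exons, the intron between them and 223 bases upstream of the pair. Neither word occurred in them on either strand. On the transcript strand 15.1% of mouse 3′ UTR windows of that length hold TGCATG and 37.0% hold GCATG. Those windows are UTR sequence, unlike the exons and intron searched, so they give only a rough scale. Intron downstream of the pair and more distant upstream intron were not analysed here. The 3′ UTR of Scn1a holds TGCATG 3 times, shown with 10 bases on either side because Scn1a is the alpha transcript that fell.
Scn1a 3′ UTR, base 584: cttaggatcaTGCATGagaaaaagtc
Scn1a 3′ UTR, base 1156: atgctgccaaTGCATGtcgatattac
Scn1a 3′ UTR, base 2015: attcatgaacTGCATGttggaaaatg
Capitals mark the word, and bases are counted from the start of the UTR. The Scn1a UTR is 2104 bases long, a length at which 51.3% of mouse 3′ UTR windows hold the word. The counts here are on the transcript strand. Scn2a1 and Scn3a also hold it 3 times each (59.0% and 69.3% of windows as long) and Scn8a 5 times (82.5%). Among the beta genes it was found 0 times in Scn2b, 0 times in Scn3b and once in Scn4b (72.8%, 66.8% and 71.7% of windows). On the opposite strand it was found 2 times in Scn8a, 0 times in Scn2b and once in each of the other members. On the transcript strand the shorter GCATG was found 2 times in Scn2b, and 97.2% of windows as long hold it. In the other members it was found from 3 times (Scn3a and Scn3b) to 8 times (Scn8a). Of the member transcripts that fell, one thus holds the longer word and the other does not, and these matches are a description of letters only.

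The targeted genes were low in the groups that received their siRNAs. Rbfox1 measured 16.1 FPKM in the cytoplasmic rescue, 38.2 in the nuclear rescue, 1.94 in the knockdown and 25.7 in the control, where FPKM counts fragments relative to transcript length and to all mapped fragments. Vector and endogenous RNA are counted together, and the nuclear rescue had 2.38 times the Rbfox1 FPKM of the cytoplasmic rescue, so isoform and amount differ together. Rbfox3 measured 1.59, 1.53, 1.59 and 12.4 FPKM in the same order. Rbfox2, which was not targeted, measured 33.2, 17.7, 42.1 and 35.4 FPKM. Neuron markers were present at a summed 1816 FPKM in the cytoplasmic rescue, 1815 in the nuclear rescue, 1726 in the knockdown and 1847 in the control. Astrocyte markers were present too, at a summed 1424, 1438, 1579 and 1575 FPKM, so the cultures were not neurons alone. Every level is the authors' single value for a group, so no spread between samples can be given. The error used is that implied by the authors' test, the log2 fold change divided by its statistic, and a gene was called at the authors' q below 0.05.

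Scn1a and Scn2b fell in the knockdown, to 69.9% and 67.2% of their control levels, while the other 4 measured subunits were not called. Of the 6 members 2 were called, both lower, where 2.35% of all genes were called in either direction and 1.58% were called lower. The median log2 fold change of the members was -0.19, against 0.03 for genes with an FPKM of at least 1.

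**Figure D1:**
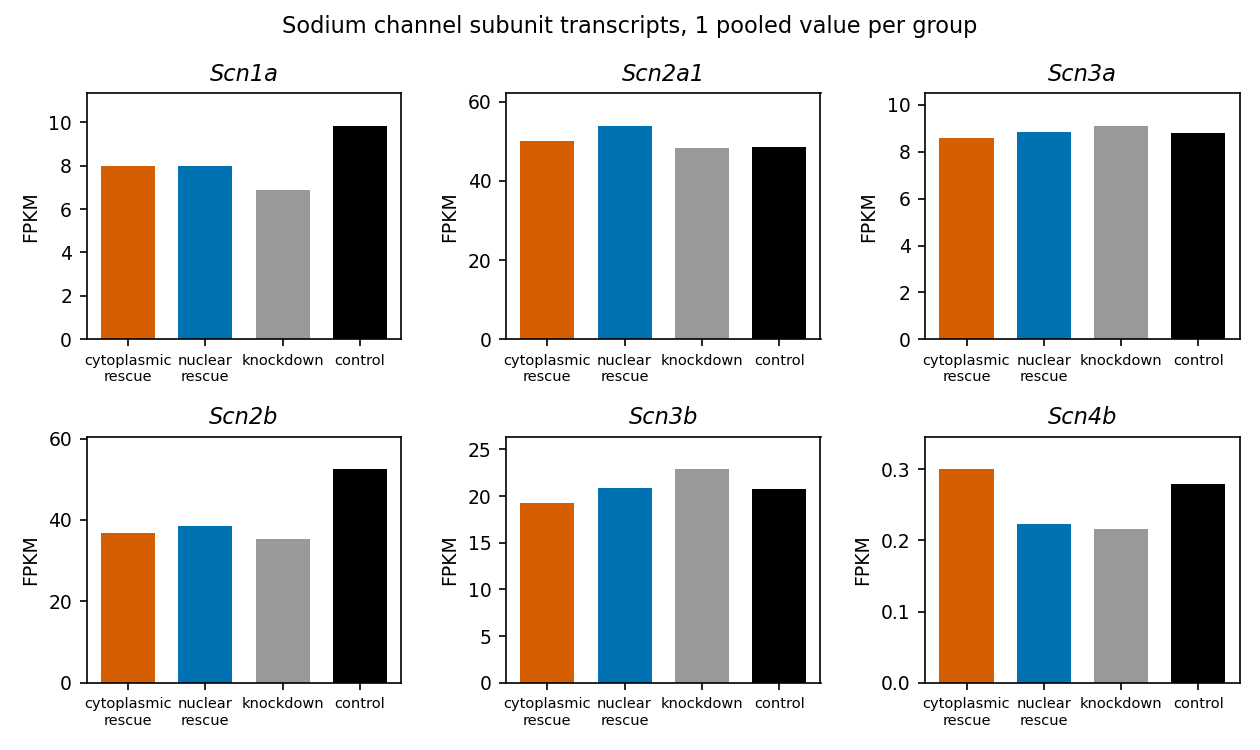
Expression of the 6 sodium channel subunits with a level, as bars of FPKM from 0, in the cytoplasmic rescue, nuclear rescue, knockdown and control, each bar being the authors' single value for the group. Scn1a and Scn2b have their highest bar in the control, whereas Scn2a1, Scn3a and Scn3b stay within 1.19 times between their highest and lowest group.

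Scn1a measured 6.88 FPKM in the knockdown and 9.84 FPKM in the control. Per the authors' deposited table it changed by -0.52 on the log2 scale, implied error 0.128 (95% interval -0.77 to -0.27, q = 0.00857). On the log2(FPKM + 1) scale the change was -0.46, and the call is lost if a change of 0.5 on that scale is also required.

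Scn2a1 was the most abundant of the 3 alpha genes with a level and was not called. It measured 48.2 FPKM in the knockdown and 48.6 FPKM in the control, a change of -0.01 (log2) per the authors' deposited table (95% interval -0.34 to 0.32). Scn3a measured 9.12 FPKM in the knockdown and 8.78 FPKM in the control, a change of 0.05 (log2) per the authors' deposited table (95% interval -0.20 to 0.31). These intervals leave room for changes of up to about 0.3 on the log2 scale in either direction. That of Scn3a lies wholly above that of Scn1a, while that of Scn2a1 overlaps it at its lower end. The alpha genes are paralogs, and how reads that match several of them were assigned is not given in the sources used here.

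Of the alpha genes, Scn1a therefore ranked below Scn3a in the knockdown, with an Scn1a over Scn3a ratio of 0.755, and above it in the control, with a ratio of 1.12. The Scn2a1 over Scn1a ratio was 7.0 in the knockdown and 4.93 in the control. Summed over the 3 alpha genes, the level was 64.2 FPKM in the knockdown and 67.2 FPKM in the control. The alpha sum moved little because Scn2a1 makes up most of it.

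Scn2b, the beta2 subunit, measured 35.3 FPKM in the knockdown and 52.5 FPKM in the control. Per the authors' deposited table it changed by -0.57 on the log2 scale, implied error 0.141 (95% interval -0.85 to -0.30, q = 0.00737), the lowest of the 6 members. Scn3b, the beta3 subunit, measured 22.9 FPKM in the knockdown and 20.8 FPKM in the control, a change of 0.14 (log2) per the authors' deposited table (95% interval -0.12 to 0.40). Its interval lies wholly above that of Scn2b.

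Scn4b, the beta4 subunit, was barely present, at 0.216 FPKM in the knockdown and 0.279 FPKM in the control. Its change of -0.37 (log2) per the authors' deposited table had a wide 95% interval, -0.92 to 0.19, which a change as large as that of Scn2b would fit within. The Scn3b over Scn4b ratio was 106 in the knockdown and 74.6 in the control. Summed over the 3 beta genes, the level was 58.4 FPKM in the knockdown and 73.6 FPKM in the control. Scn2b over Scn2a1 was 0.732 in the knockdown and 1.08 in the control, so these genes traded places at the top of the order.

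**Figure D2:**
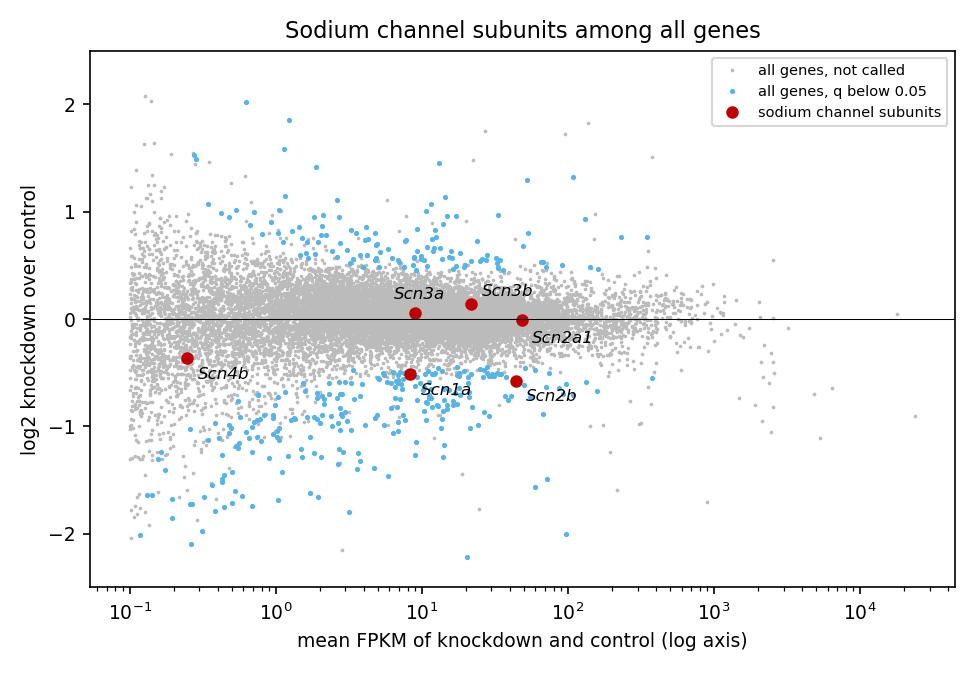
Log2 fold change of knockdown over control against mean FPKM (log axis) for all genes with a mean FPKM of at least 0.1, 1 point per gene, blue where the authors' q is below 0.05, with the 6 sodium channel subunits in red. Scn1a (-0.52) and Scn2b (-0.57) lie among the called genes below 0, and Scn2a1, Scn3a and Scn3b lie within the grey band. Genes changed by more than 2.5 on the log2 scale, Rbfox1 and Rbfox3 among them, are beyond the axis.

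In bulk RNA, fewer cells of a type and less RNA per cell cannot be told apart, and markers of several cell types moved with Scn1a and Scn2b. Of 15 interneuron markers 5 were called in the knockdown: Npy, Cck, Vip and Gad2 lower, and Calb2 higher. Their summed level was 484 FPKM in the knockdown and 624 FPKM in the control. Pvalb, the defining marker of the fast-spiking interneurons in which Scn1a is best known, measured 4.67 FPKM in the knockdown and 5.23 FPKM in the control, and Sst 17.0 and 23.6 FPKM. Gad2, a GABA-synthesising enzyme gene, measured 16.8 FPKM in the knockdown and 24.4 FPKM in the control, whereas Slc32a1, the vesicular GABA transporter gene, measured 8.32 and 9.36 FPKM. Other markers that were not called stood higher in the knockdown, such as Lhx6, a transcription factor gene, at 5.52 FPKM in the knockdown and 4.99 FPKM in the control, and Erbb4, a receptor gene, at 7.54 and 6.92 FPKM. Of the 15 markers 10 lay below 0 on the log2 scale and 5 above. Of 8 excitatory neuron markers 1 was called, Neurod2, lower, and the list summed to 311 FPKM in the knockdown and 346 FPKM in the control.

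Of 11 general neuron markers 3 were called: Dcx, a marker of immature neurons, higher, and Nefm and the targeted Rbfox3 lower. Of 12 oligodendrocyte lineage markers 4 were called, among them Mag and Mbp higher and Gpr17 lower, summing to 298 FPKM in the knockdown and 282 FPKM in the control. Of 9 microglia markers 3 were called lower, C1qa, C1qc and Csf1r, summing to 7.17 FPKM in the knockdown and 12.0 FPKM in the control. None of 9 astrocyte markers was called by the authors' test, and 0 had an unadjusted p below 0.05. No measured marker was listed at 0. The part of these shifts in the levels of Scn1a and Scn2b was not tested.

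Neither rescue moved a subunit past the threshold. In the cytoplasmic rescue 0 of 6 members were called by the authors' test, where 0.506% of all genes were called, and 0 members had an unadjusted p below 0.05. In the nuclear rescue 0 of 6 were called, where 0.11% of all genes were called, and again 0 had an unadjusted p below 0.05. The member medians were 0.06 and 0.08 on the log2 scale, against -0.06 and -0.01 for genes with an FPKM of at least 1. Both rescues are set against the same knockdown samples, so the error of the knockdown value enters both.

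Scn1a measured 7.98 FPKM in the cytoplasmic rescue and 7.97 FPKM in the nuclear rescue, against 6.88 FPKM in the knockdown. Both rescue values lie between the knockdown and the control value of 9.84. In the authors' deposited tables the log2 fold changes were 0.21 in the cytoplasmic rescue (95% interval -0.06 to 0.49) and 0.21 in the nuclear rescue (95% interval -0.07 to 0.49). By point estimate the cytoplasmic rescue regained 37.1% of the knockdown's fall and the nuclear rescue 36.7%, which puts them at 81.1% and 81.0% of control. These shares carry no error, neither change was called, and no rescue was tested against the control.

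Scn2b measured 36.8 FPKM in the cytoplasmic rescue and 38.4 FPKM in the nuclear rescue, against 35.3 FPKM in the knockdown. Both lay between the knockdown value and the control value of 52.5, at 70.0% of control in the cytoplasmic rescue and 73.2% in the nuclear rescue. By point estimate they regained 8.6% and 18.3% of the fall. The log2 fold changes in the authors' deposited tables were 0.06 (95% interval -0.25 to 0.37) and 0.12 (95% interval -0.22 to 0.47). These intervals overlap those of Scn1a.

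The subunits that had not been called in the knockdown were not called in the rescues either. Scn2a1 measured 50.2 FPKM in the cytoplasmic rescue and 54.0 FPKM in the nuclear rescue, against 48.2 FPKM in the knockdown. Scn3a measured 8.60 FPKM in the cytoplasmic rescue and 8.83 FPKM in the nuclear rescue, against 9.12 FPKM in the knockdown. Scn3b, at 19.2 FPKM in the cytoplasmic rescue and 20.9 FPKM in the nuclear rescue against 22.9 FPKM in the knockdown, had the lowest rescue fold changes of the members, -0.25 and -0.13 on the log2 scale in the authors' deposited tables. Scn4b had the highest point estimate, a log2 fold change of 0.47 in the cytoplasmic rescue in the authors' deposited table, at levels of 0.300 FPKM in the cytoplasmic rescue and 0.216 FPKM in the knockdown (95% interval -0.07 to 1.01). In the nuclear rescue Scn4b measured 0.223 FPKM.

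**Figure D3:**
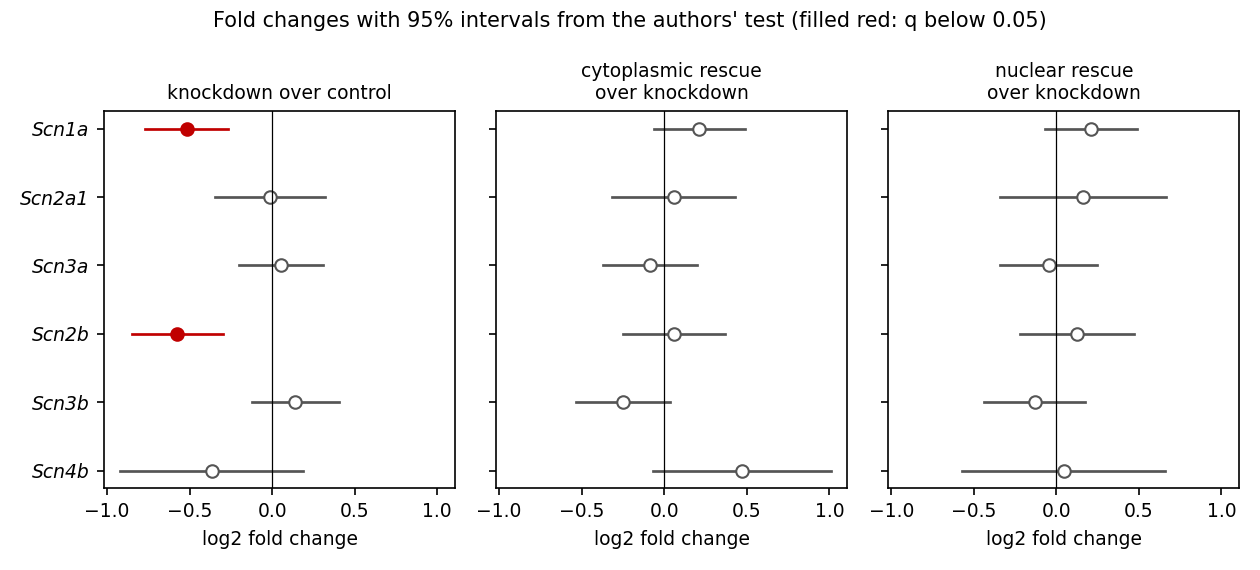
Log2 fold change (point) and 95% interval (line) of 6 sodium channel subunits for knockdown over control, cytoplasmic rescue over knockdown and nuclear rescue over knockdown, with intervals from the error implied by the authors' test. Filled red points (q below 0.05) are Scn1a and Scn2b in the knockdown panel, and all member intervals in the rescue panels include 0.

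No subunit was called different between the isoforms. A z test of the cytoplasmic minus the nuclear fold change, which counts the shared knockdown error in both and is therefore conservative, called 0 of 6 members after Benjamini-Hochberg adjustment, where 0.026% of 15365 genes were called (4 genes), and 0 members had an unadjusted p below 0.05. The difference for Scn1a was 0.00 on the log2 scale (95% interval -0.39 to 0.40), for Scn2b -0.06 (95% interval -0.53 to 0.40) and for Scn4b 0.43 (95% interval -0.39 to 1.25). The intervals leave room for differences of up to about 0.4 for Scn1a and 0.5 for Scn2b. They are not limits of detection, since calls were adjusted over all genes and larger differences could also go uncalled.

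The order of levels was Scn2a1, Scn2b, Scn3b, Scn3a, Scn1a and Scn4b in the cytoplasmic rescue, the nuclear rescue and the knockdown. In the control it was Scn2b, Scn2a1, Scn3b, Scn1a, Scn3a and Scn4b. With 1 value per group, neighbours in this order cannot be set against a spread between samples. The steps from Scn3a to Scn4b and from Scn2a1 to Scn3b were large in every group, whereas the Scn1a over Scn3a ratio was between 0.755 and 1.12 in all groups.

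Genes whose levels followed those of the called members most closely over the 4 groups were found among 12331 genes with a mean FPKM of at least 1, by Euclidean distance of log2(FPKM + 1) after centring each gene. Nearest to Scn1a were Tanc1 (distance 0.0327), AI837181, Cxx1b, Kcnj3 and Gm2115, and 23 genes lay within 0.1. Tanc1, a postsynaptic scaffold gene, measured 6.60, 6.36, 5.63 and 8.09 FPKM in the cytoplasmic rescue, nuclear rescue, knockdown and control. Kcnj3, the gene of a G protein-gated potassium channel subunit, measured 29.5, 28.4, 24.2 and 35.0 FPKM in the same order. Nearest to Scn2b were Crtac1 (distance 0.0275), Ptprn, Kbtbd5, Gaa and Lingo3, and 20 genes lay within 0.1. Crtac1, an extracellular matrix protein gene, measured 37.6, 39.1, 36.3 and 54.8 FPKM, and Ptprn, a dense-core vesicle protein gene, 42.0, 42.7, 39.5 and 60.6 FPKM. Over 4 values such closeness is a description only.

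Exon use was read from the authors' list of cassette exons, which holds only exons whose inclusion fraction changed by at least 0.1, so an exon that is absent from it was not analysed here. The neonatal exon of Scn2a1 was listed in all 3 comparisons. Its deposited inclusion fraction was 0.314 in the cytoplasmic rescue, 0.316 in the nuclear rescue, 0.427 in the knockdown and 0.296 in the control. The knockdown value stands above the other 3, and both rescues lie within 0.1 of the control. Because both rescue comparisons use the same knockdown libraries, their like values are not independent.

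How far this holds depends on which reads are compared. The junction reads that join the exon to its upstream neighbour numbered 303 in the cytoplasmic rescue, 297 in the nuclear rescue, 359 in the knockdown and 262 in the control. Those that join it to the next listed exon numbered 73, 67, 102 and 49, and those that skip from neighbour to neighbour 6, 2, 7 and 5. Included junctions (the mean of both sides) were therefore 96.9% in the cytoplasmic rescue, 98.9% in the nuclear rescue, 97.0% in the knockdown and 96.9% in the control. Fisher's exact test on these reads, adjusted over all exons of each table, gave p = 1 for the knockdown, 1 for the cytoplasmic and 0.352 for the nuclear rescue. A transcript with the adult exon gives none of these 3 junctions, so junction reads say little about this pair.

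Reads on the exon compared with reads on both neighbouring exons gave another picture, in a test chosen after the data were seen. The deposited coverage converts to whole reads of 50 nt within 0.05 for every value in the 3 tables. The exon held 461 reads beside 4554 on its neighbours in the knockdown and 311 beside 4236 in the control. Per base, the exon was covered at 41.3% of its neighbours in the knockdown and 30.6% in the control, values close to the authors' inclusion fractions. Both measures rest on the authors' reads of the same libraries, so their closeness is no independent evidence. The ratio of exon to neighbour reads in the knockdown was 1.38 times that in the control (95% interval 1.19 to 1.60, counting error only, Fisher's exact adjusted p = 1.73e-04).

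The cytoplasmic rescue held 376 exon reads beside 4924 on the neighbours, which is 31.4% per base, and the nuclear rescue 364 beside 4805, which is 31.0%. Relative to the knockdown the ratio was 0.754 in the cytoplasmic rescue (95% interval 0.654 to 0.869, Fisher's exact adjusted p = 7.27e-04) and 0.748 in the nuclear rescue (95% interval 0.648 to 0.864, Fisher's exact adjusted p = 2.70e-04). By this measure the neonatal exon was used more in the knockdown libraries than in the control libraries and less in both rescues than in the knockdown, while total Scn2a1 FPKM did not change beyond its error. The tests compare pooled libraries and do not measure the spread between samples. A junction read of the exon also touches a neighbouring exon, so the same read may be counted on both sides. Both reads of a pair may be counted too. The intervals and p-values of every exon against neighbour comparison here are therefore approximate. They are also no independent evidence, since the exon was listed for its change.

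A feature of the counts limits this reading. The exon's reads equalled its junction reads exactly, with 0 reads lying wholly inside the 92 nt in any group, although reads of 50 nt could. Of 91 exons at least as long in the knockdown table, the others of this kind were 2 exons of Cis4. The upstream junction also held 3.52 times the reads of the downstream junction in the knockdown and 5.35 times in the control. Such imbalance was not particular to this exon. Of 214 listed exons, 36 in the knockdown and 24 in the control, this one included, had a ratio at least as far from 1. How reads were divided between the near-identical exons of the pair is not given in the sources used here, and its part in the values was not tested.

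The Scn1a exon (chromosome 2, 66126931 to 66127212 in mm9, minus strand, 282 nt, coding) had an inclusion fraction of 0.798 in the knockdown and 0.899 in the control. It held 60 and 38 inclusion junction reads and 9 skipping reads in the knockdown, against 103 and 69 inclusion and 11 skipping reads in the control. The included share was 84.5% in the knockdown (exact 95% interval 72.6 to 92.7%) and 88.7% in the control (80.6 to 94.2%). The intervals overlap, and Fisher's exact test gave an adjusted p of 0.518 on junction reads and 0.169 on exon against neighbour reads. No annotated transcript joins its neighbours directly.

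The Scn8a exon (chromosome 15, 100854692 to 100854814 in mm9, plus strand, 123 nt, coding) was listed for the cytoplasmic rescue. It belongs to a known developmental switch in which the full-length channel of neurons keeps this exon, and 1 annotated transcript joins its neighbours directly. Its inclusion fraction was 0.915 in the cytoplasmic rescue and 0.813 in the knockdown. Junction reads were 92 and 93 for inclusion and 2 for skipping in the cytoplasmic rescue, against 78 and 47 for inclusion and 6 for skipping in the knockdown. The included share was 97.9% in the cytoplasmic rescue (exact 95% interval 92.5 to 99.7%) and 91.2% in the knockdown (81.8 to 96.7%), with a Fisher's exact adjusted p of 0.148. The exon to neighbour read ratio relative to the knockdown had a 95% interval of 0.841 to 1.19 (Fisher's exact adjusted p = 1).

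By junction reads, then, 0 of the 2 member exons listed for the knockdown, 0 of 2 for the cytoplasmic rescue and 0 of 1 for the nuclear rescue passed, where 32.2%, 22% and 53.1% of all listed exons passed. By exon against neighbour reads the Scn2a1 exon alone passed in each, where 39.3%, 29.3% and 48.7% of listed exons did. Without adjustment, 0 member exons had a junction-read p below 0.05.

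**Figure D4:**
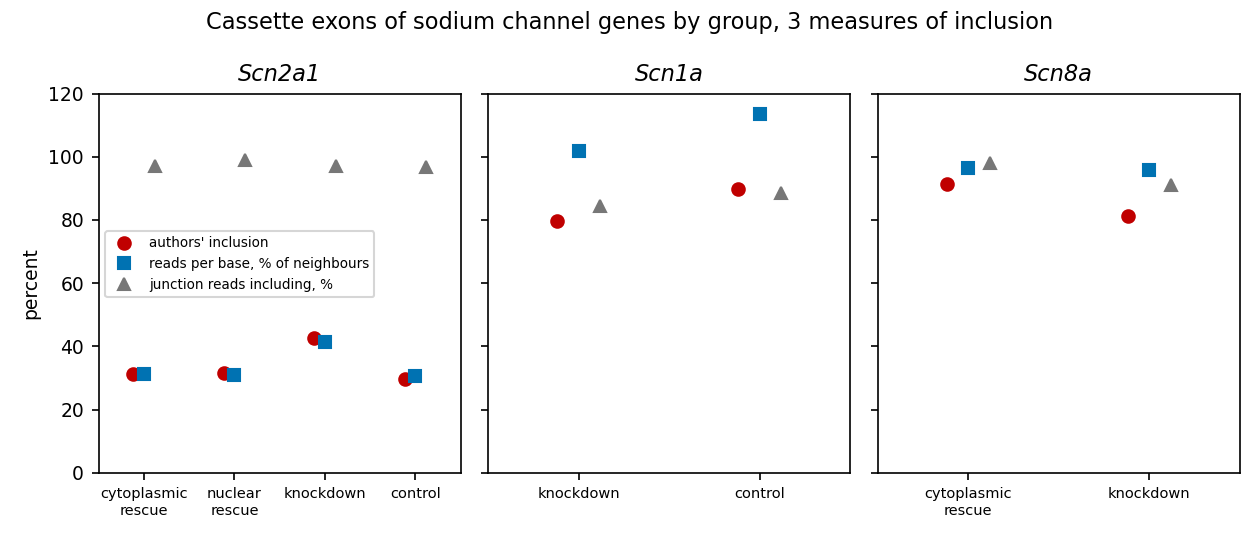
Inclusion of the listed exons of Scn2a1, Scn1a and Scn8a by group in percent: the authors' inclusion fraction (circles), reads per base as a percentage of the neighbouring exons (squares) and the share of junction reads that include the exon (triangles), 1 pooled value per group. For Scn2a1 circles and squares stand highest in the knockdown, at 42.7 and 41.3%, while its triangles lie between 96.9 and 98.9%, and for Scn1a and Scn8a neither read-based measure passed its test.

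Genes that hold sodium channels in place or modify them were counted in the same way. Of 18 measured partners at the axon initial segment and node 1 was called in the knockdown, where 2.35% of all genes were called. It was Kcnq3, the gene of an M-current potassium channel subunit that shares the ankyrin-G anchor, at 9.02 FPKM in the knockdown and 14.2 FPKM in the control, with a change of -0.65 (log2) per the authors' deposited table (q = 2.65e-04). It was also the 1 partner called in the cytoplasmic rescue, at 12.7 FPKM in the cytoplasmic rescue and 9.02 FPKM in the knockdown (log2 fold change 0.50 in the authors' deposited table, q = 0.0461, a call that is lost at q below 0.01). In the nuclear rescue 0 partners were called by the authors' test, and 2 had an unadjusted p below 0.05.

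None of 14 sodium channel modifying enzymes, 4 sodium leak channel genes and 6 sodium pump subunits was called in the knockdown by the authors' test, with 1, 0 and 1 at an unadjusted p below 0.05. The most abundant of these, Nedd4, a ubiquitin ligase, measured 104 FPKM in the knockdown and 99.2 FPKM in the control. Atp1b1, a pump subunit, measured 365 and 379 FPKM. Of 12 splicing regulators of sodium channel exons, the 2 called in the knockdown were the targeted Rbfox1 and Rbfox3. In the nuclear rescue Rbfox1 was called higher and Rbfox2 lower, with Rbfox2 at 17.7 FPKM in the nuclear rescue and 42.1 FPKM in the knockdown.

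Several of these related genes had exons on the authors' lists. In the knockdown, 8 exons in 7 of these genes were listed, of which 3 passed Fisher's exact test on junction reads, among them exons of Camk2d and Mbnl1. The 42-nt exon of Camk2d, a calmodulin-dependent kinase gene, had an inclusion fraction of 0.350 in the knockdown and 0.508 in the control (Fisher's exact adjusted p = 0.0389 on junction reads, 0.0530 on exon against neighbour reads). In the cytoplasmic rescue 2 of 3 listed exons passed, and the Camk2d exon measured 0.545 in the cytoplasmic rescue and 0.350 in the knockdown (Fisher's exact adjusted p = 0.0140 on junction reads, 0.0877 on exon against neighbour reads). In the nuclear rescue 8 of 9 passed, among them a 218-nt exon of Ank3, the gene of the ankyrin-G scaffold that holds sodium channels at the axon initial segment, at 0.454 in the nuclear rescue and 0.271 in the knockdown (Fisher's exact adjusted p = 0.0460). Among all listed exons, 32.2% passed in the knockdown, 22% in the cytoplasmic rescue and 53.1% in the nuclear rescue. Because the tables list only exons already seen to change, these counts describe the lists only.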

How the data were processed

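RNA-seq of 8 samples was processed by the authors with CASAVA and Cufflinks on the mouse build mm9, per the submitters' processing notes, and with SpliceTrap per the file names. No tool version is given in the sources used here. Per the labels' protocols, total RNA was depleted of ribosomal RNA and sequenced as paired-end reads of 50 nt, without strand. The authors deposited 3 expression tables, with 1 FPKM per group (libraries combined), a log2 fold change, a test statistic (a score whose sign is opposite to the fold change), a p-value and a q-value. They also deposited 3 tables of called cassette exons, with an inclusion fraction per group, its difference, a p-value, counts of junction reads and coverage signal per exon. Another 18 value columns were not used. Library totals were not used here, so depth per sample is unknown, and the precision of an exon value is set by the read counts printed beside it. Each table holds 1 value per group, so the planned per-library tests were not possible.

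Recomputed from the FPKM values, log2 fold changes matched those deposited within 2.50e-04, and the deposited p-value matched a normal tail (two-sided) of the statistic for all genes with a finite fold change, so the fold change over the statistic was taken as the implied standard error. Calls were the authors' q below 0.05. The rescues were set against each other by a z test, and exons by Fisher's exact test (two-sided) on junction counts, each with Benjamini-Hochberg adjustment over the whole table (Python 3.11.15, scipy 1.17.1, pandas 2.3.3). Both tests were checked on simulated data that followed their own assumptions, with no added spread between libraries. The test of exon against neighbour reads was not simulated. Binomial intervals are exact (Clopper-Pearson) at 95% and cover counting error only. Alternatives were other thresholds, an FPKM minimum of 1, a pseudocount of 1, recentring and other read choices. The genes named are all members, called genes of the other lists (the most abundant gene of a list without calls), the Rbfox genes and the 5 genes nearest to each called member. The markers Pvalb, Sst, Slc32a1, Lhx6 and Erbb4 were named after their values were seen, as were the exons of related genes. Members and lists were chosen with earlier results of these data known. Sequences come from GENCODE M21 (GRCm38), and overlapping genes from RefSeq. Sequence of the mm9 genome was not used here. Results for some related genes and the sequence of the Scn2a1 exon are not reported here.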

Additional observations from a re-analysis of the deposited data

How the results depend on the processing

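The calls of Scn1a and Scn2b in the knockdown held at q below 0.01, with q recomputed within the table, with an FPKM minimum of 1 and after recentring on the median gene. Of these, 1 (Scn2b) stayed when the change on log2(FPKM + 1) also had to reach 0.5, because Scn1a moved by -0.46 on that scale. In both rescues and between them, 0 members were called under any alternative run. With exon reads against neighbour reads, an alternative chosen after the data were seen, 1 member exon passed in the knockdown, 1 in the cytoplasmic and 1 in the nuclear rescue, each time that of Scn2a1, where junction reads gave 0. With a read minimum of 20 per group, with summed junctions and at a threshold of 0.01, junction reads gave 0 throughout. Of 87 settings for single fold changes, 86 kept direction and call. Much of this was fixed in advance, because the q thresholds and the FPKM minimum leave a fold change as it is. Only Scn1a and Scn2b in the knockdown had a call to lose. No replicate could be left out. No paired analysis was possible because the tables hold 1 pooled value per group with no replicate numbers. Precision was lowest for Scn4b, whose log2 interval in the cytoplasmic rescue ran from -0.07 to 1.01.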
